A study of Mus musculus with 6 samples.

Results

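Glucocorticoid-induced regulators are genes that the stress hormone corticosterone switches on through the glucocorticoid receptor and whose products act back on hormone signalling, kinases or transcription. The 7 examined here are Fkbp5, Tsc22d3, Tsc22d1, Sgk1, Zbtb16, Errfi1 and Hsd11b1. They and the lists of related genes below were chosen by name with earlier results of these data known, so counts of calls among them are descriptive. All 7 were found among the 34866 genes of the count table and had enough counts to be tested, which held for 13718 genes in all. Liver RNA was sequenced from male C57BL/6 mice of 8 weeks in 2 groups of 3 libraries: one group had vehicle and the other iD1, a code name. The protocol speaks of a drug given intraperitoneally. The vehicle samples carry the treatment label untreated, whereas the study's design text names a vehicle. The labels give neither the dose, the exposure time, the hour of sampling nor the target of iD1. They also do not say whether each library is from its own mouse, and p-values here rest on library-to-library spread, which may be technical. One vehicle library has a column number that no sample title carries and is called the unnumbered vehicle replicate.

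Corticosterone enters hepatocytes, where 11-beta-hydroxysteroid dehydrogenase, the product of Hsd11b1, can regenerate it from its inert keto form. The hormone binds the glucocorticoid receptor, which is held ready by HSP90 and its cochaperones, and the loaded receptor binds DNA at paired hexamers and raises or lowers nearby genes. In liver this hormone is known for raising genes of glucose production and amino acid breakdown and for curbing inflammation, and its level in blood follows both stress and the time of day.

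Totals ran from 23515571 to 37613549 estimated counts per library, so 1 count was worth between 0.0241 and 0.0464 CPM (the usual depth-scaled count, here on TMM-scaled library totals). With iD1, 2293 of the tested genes were called at an adjusted p under 0.05 by edgeR's quasi-likelihood test, 50.4% of them higher; leaving out any 1 library other than iD1 replicate 1 (2574) lowered the count to between 1212 and 1509. Scaled by upper-quartile factors, 38.4% of calls were higher, and scaled by library size only, 24.1% were, where the median difference over all genes was -0.20 in log2. The 5 hepatocyte markers summed to 67053 to 85013 CPM in vehicle and 79244 to 86512 CPM in iD1 libraries, far above every other cell type's list, and none of them was called. Of 43 tested markers of liver cell types, 4 were called higher and 3 lower, beside 8.42% and 8.3% of all tested genes. The neutrophil markers S100a8, S100a9 and Retnlg and the cholangiocyte marker Sox9 were higher. Lower were Krt19, also of the cholangiocyte list, the sinusoidal endothelial marker Fcgr2b and the stellate cell marker Lrat. The neutrophil list of 5 genes summed to 1.16 to 1.32 CPM in vehicle and 3.51 to 11.2 CPM in iD1 libraries. Mitochondrial genes took 10.6% to 13.6% of counts in vehicle and 8.68% to 10.3% in iD1 libraries. In bulk tissue, more or fewer cells of a type cannot be told apart from more or less RNA per cell. The part of other cells in the results below was not tested.

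RefSeq start windows on GRCm38.p6, each 300 bases long from 250 bases before a start site, were found for 6 of the 7 genes, 18 windows in all. They were searched for letters through which this hormone, cyclic AMP or the clock can act. The receptor's full element, searched as AGAACA, any 3 bases and TGTTCT, which reads the same on both strands, was in 3 of 32851 windows of all genes (0.00913%), and 1 of the 3 belongs to Sgk1. It lies 189 bases before the start at position 21993890 of chromosome 10. A single arm of that element, AGAACA on either strand, is common: it was in 19% of all windows and in 5 of the 18, of Sgk1, Tsc22d3 and Tsc22d1, and 2 of its matches in the Sgk1 window are the arms of the full element. The cyclic AMP element TGACGTCA, in 1.79% of all windows, was in 1 of 2 Errfi1 windows, 51 bases before the start. The E-box CACGTG, bound by clock factors among others, was in 7.15% of all windows. It was in the Fkbp5 window 169 bases before the start, in a Sgk1 window at 246 bases and in a Tsc22d1 window at 33 bases. That Tsc22d1 window is not printed. Below are the 250 bases before the start, 5′ to 3′ on the gene's strand, with the full element and E-box (Sgk1), the E-box (Fkbp5) and the cyclic AMP element (Errfi1) in capitals. The Sgk1 bases are chr10:21993640-21993889 (plus strand), those of Fkbp5 chr17:28486150-28486399 (minus) and those of Errfi1 chr4:150854820-150855069 (plus).
Sgk1: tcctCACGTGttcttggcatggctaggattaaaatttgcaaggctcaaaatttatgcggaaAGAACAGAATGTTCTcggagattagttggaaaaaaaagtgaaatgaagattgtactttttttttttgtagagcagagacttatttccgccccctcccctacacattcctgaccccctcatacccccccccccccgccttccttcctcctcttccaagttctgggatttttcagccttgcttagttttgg
Fkbp5: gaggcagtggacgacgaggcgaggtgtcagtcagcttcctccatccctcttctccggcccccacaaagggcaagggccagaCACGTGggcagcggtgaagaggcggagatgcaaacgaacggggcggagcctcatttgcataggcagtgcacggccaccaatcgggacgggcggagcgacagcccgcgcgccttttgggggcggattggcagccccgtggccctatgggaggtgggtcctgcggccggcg
Errfi1: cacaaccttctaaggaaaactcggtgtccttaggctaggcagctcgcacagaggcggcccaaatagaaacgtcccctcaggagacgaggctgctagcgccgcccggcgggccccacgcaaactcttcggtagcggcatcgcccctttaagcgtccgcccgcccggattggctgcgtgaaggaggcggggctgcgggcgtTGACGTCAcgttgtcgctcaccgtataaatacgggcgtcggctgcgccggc
A match is a run of letters and not a measured binding site. The counts are summed per gene, so they do not say which start site was used.

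Of the 7 regulators, Sgk1 and Errfi1 rose with iD1, Tsc22d1 fell, and Fkbp5, Zbtb16, Tsc22d3 and Hsd11b1 did not pass the test. That is 3 of 7 called, beside 16.7% of all tested genes. Higher calls made up 8.42% and lower calls 8.3% of all tested genes. The vehicle and iD1 values did not overlap in 5 of the 7, 4 higher and 1 lower, beside 37.2% of all tested genes, of which 18.5% were higher and 18.7% lower. The median log2 fold change of the 7 was 1.07, against 0.00064 over all tested genes. The largest differences by size, those of Zbtb16 and Fkbp5, were among those not called. Leaving out iD1 replicate 2 or iD1 replicate 3 lowered the count of 3 to 1, and leaving out any other single library lowered it to 2. The 2 were Sgk1 and Errfi1 without vehicle replicate 2. Otherwise Sgk1 was joined by Fkbp5 (without vehicle replicate 1), Zbtb16 (without the unnumbered vehicle replicate) or Tsc22d3, called lower (without iD1 replicate 1).

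**Figure D1:**
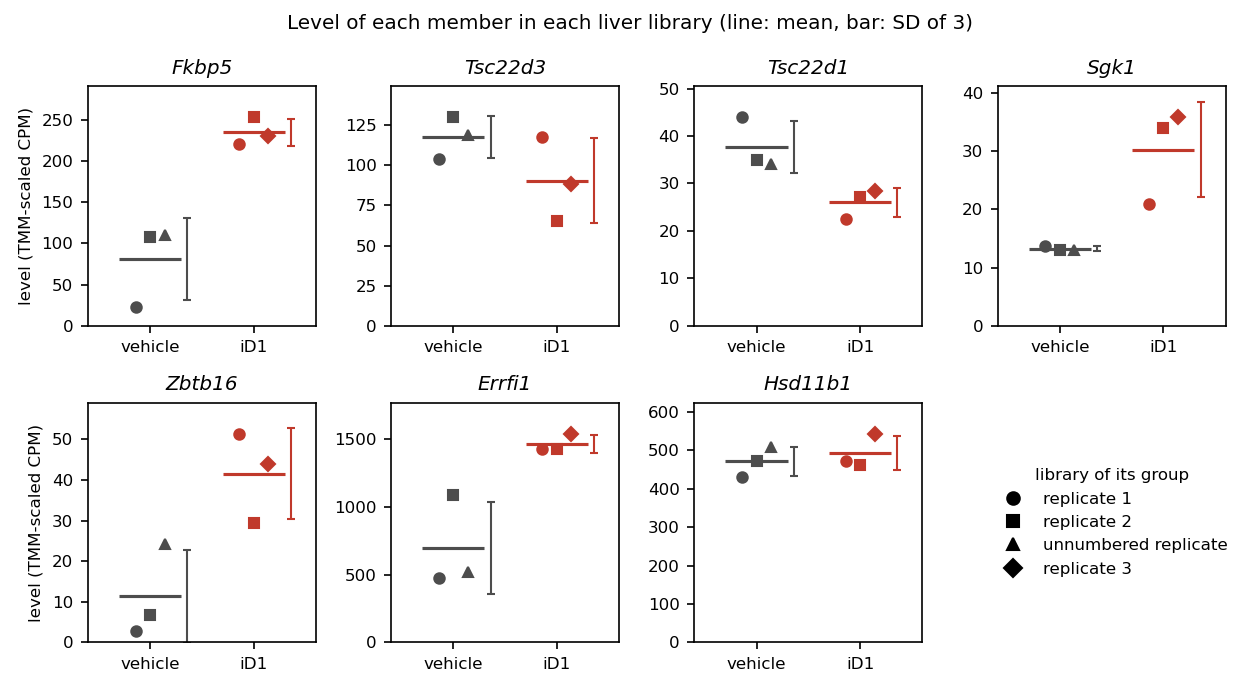
Level of each regulator in TMM-scaled CPM (vertical axes, each from 0) in the 3 vehicle and 3 iD1 libraries, with 1 point per library, a line at the mean and a bar for the SD. The iD1 points of Fkbp5, Zbtb16, Sgk1 and Errfi1 lie above all vehicle points, those of Tsc22d1 lie below them, and those of Tsc22d3 and Hsd11b1 overlap with them.

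Hsd11b1 (ENSMUSG00000016194, chromosome 1, 193221634 to 193264075, minus strand), the enzyme that makes active corticosterone inside the cell, was expressed at much the same level in all libraries. It measured 431, 472 and 509 CPM in vehicle replicate 1, vehicle replicate 2 and the unnumbered vehicle replicate, and 473, 462 and 543 CPM in iD1 replicates 1, 2 and 3. The groups overlapped, and all 6 values lay within a narrow range. The log2 fold change was 0.07 (SE 0.14; 95% interval -0.26 to 0.39), and edgeR's adjusted p was 0.797. Its sign turned to -0.0086 with upper-quartile factors, to -0.13 with library size only and to -0.0076 without iD1 replicate 3. The test therefore gave no direction, and the interval leaves changes of the size seen for Sgk1 or Errfi1 outside it.

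Fkbp5 (ENSMUSG00000024222, chromosome 17, 28399094 to 28517527, minus strand) encodes FKBP51, a cochaperone that lowers the receptor's affinity for hormone and so closes a feedback loop. Its level was 23.4, 108 and 110.4 CPM in vehicle replicate 1, vehicle replicate 2 and the unnumbered vehicle replicate. In iD1 replicates 1, 2 and 3 it was 220.1, 253 and 231 CPM. Every iD1 library was far above the highest vehicle library, and vehicle replicate 1 stood far below the other vehicle libraries. The means were 80.6 ± 49.6 and 235 ± 16.8 CPM (SD, n = 3 each), 2.91-fold apart, and the log2 fold change was 1.54 (SE 0.59; 95% interval 0.05 to 3.03), for which edgeR's adjusted p was 0.149. The coefficient of biological variation that edgeR fitted for it was 0.483, higher than that of 97.9% of tested genes. Without vehicle replicate 1 the log2 fold change was smaller, at 1.10 (SE 0.14), and passed the test with an adjusted p of 0.0039; the other 5 such fits gave adjusted p-values from 0.196 to 0.320.

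Zbtb16 (ENSMUSG00000066687, chromosome 9, 48654297 to 48836222, minus strand) encodes PLZF, a zinc finger repressor of transcription that is among the most inducible glucocorticoid targets in several tissues. It was low and uneven in vehicle, at 2.83, 6.82 and 24.3 CPM in replicate 1, replicate 2 and the unnumbered replicate, from 85, 283 and 794 counts. The iD1 libraries had 51.4, 29.4 and 43.9 CPM. The unnumbered vehicle replicate came close to iD1 replicate 2, although the groups did not overlap. The log2 fold change, 1.88 (SE 0.84; 95% interval -0.31 to 4.06), was higher than that of 98.8% of tested genes. Its fitted variation, 0.678, was higher than that of 99.1%, and the adjusted p was 0.212 in edgeR's test. Without the unnumbered vehicle replicate the log2 fold change was 3.08 (SE 0.46) with an adjusted p of 0.0196, and in the other 5 fits without 1 library the gene was not called. Limma-voom called Zbtb16 (2.36, adjusted p = 0.0273) and Fkbp5 (1.85, adjusted p = 0.0449).

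Tsc22d3 (ENSMUSG00000031431, chromosome X, 140539528 to 140600659, minus strand) encodes GILZ, the leucine zipper protein through which glucocorticoids restrain NF-kB and AP-1 in immune cells. Unlike Fkbp5 and Zbtb16 it was not higher in iD1 libraries. It measured 104, 129.8 and 119 CPM in vehicle replicate 1, vehicle replicate 2 and the unnumbered vehicle replicate, and 118, 65.4 and 88.1 CPM in iD1 replicates 1, 2 and 3. iD1 replicate 1 lay within the vehicle range and the other iD1 libraries below it. The log2 fold change was -0.38 (SE 0.20; 95% interval -0.83 to 0.07) with an adjusted p of 0.232 in edgeR's test. It was -0.61 (SE 0.17) without iD1 replicate 1, with an adjusted p of 0.0340, and -0.20 without iD1 replicate 2, with an adjusted p of 0.498.

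Tsc22d1 (ENSMUSG00000022010, chromosome 14, 76414961 to 76507765, plus strand), a relative of GILZ with the same TSC box and leucine zipper and first known as a gene induced by TGF-beta, fell. Its level was 43.9, 35.0 and 34.2 CPM in vehicle replicate 1, vehicle replicate 2 and the unnumbered vehicle replicate, and 22.6, 27.1 and 28.4 CPM in iD1 replicates 1, 2 and 3. The groups did not overlap, and the vehicle mean was 1.45 times the iD1 mean. The log2 fold change was -0.53 (SE 0.14) with an adjusted p of 0.0313 in edgeR's test. The call was lost without any 1 of the 6 libraries, with adjusted p-values from 0.0525 to 0.0984 and log2 fold changes from -0.60 to -0.41.

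Sgk1 (ENSMUSG00000019970, chromosome 10, 21882184 to 21999903, plus strand) encodes a serine/threonine kinase that steroid hormones induce and that insulin signalling activates. Its call was the steadiest among the rises. Its iD1 values were less even than those of Errfi1 or Fkbp5, with SDs of 27.0%, 4.48% and 7.15% of their means. The vehicle libraries had 13.7, 13.0 and 13.0 CPM (replicate 1, replicate 2, unnumbered), and iD1 replicates 1, 2 and 3 had 20.9, 34.0 and 35.8 CPM. All iD1 values lay above all vehicle values, with iD1 replicate 1 the nearest to vehicle. The means were 13.2 ± 0.435 and 30.2 ± 8.15 CPM (SD, n = 3 each), 2.28-fold apart, and the log2 difference was 1.19 (SE 0.19; edgeR adjusted p = 0.00435). It was called in all 16 alternatives, at log2 fold changes from 0.97 to 1.40, and of the 7 regulators it was the only one to be called under each.

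Errfi1 (ENSMUSG00000028967, chromosome 4, 150853919 to 150868892, plus strand) encodes MIG6, a feedback inhibitor that binds and blocks the EGF receptor kinase. It was abundant in vehicle, at 479.6, 1089.8 and 518 CPM in replicate 1, replicate 2 and the unnumbered replicate. The iD1 libraries had 1428, 1427 and 1541 CPM. The iD1 values lay close together above all vehicle values, while vehicle replicate 2 stood well above the other vehicle libraries. The means were 696 ± 342 and 1466 ± 65.6 CPM (SD, n = 3 each), 2.11-fold apart, with a log2 difference of 1.07 (SE 0.30; edgeR adjusted p = 0.0414). Without vehicle replicate 2 the log2 fold change was 1.55 (SE 0.19) with an adjusted p of 0.00274. Leaving out any other library ended the call, with adjusted p-values from 0.0781 without iD1 replicate 1 to 0.144 without the unnumbered vehicle replicate, as did upper-quartile factors (0.0505), library size only (0.0981) and no filter on low counts (0.0724).

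**Figure D2:**
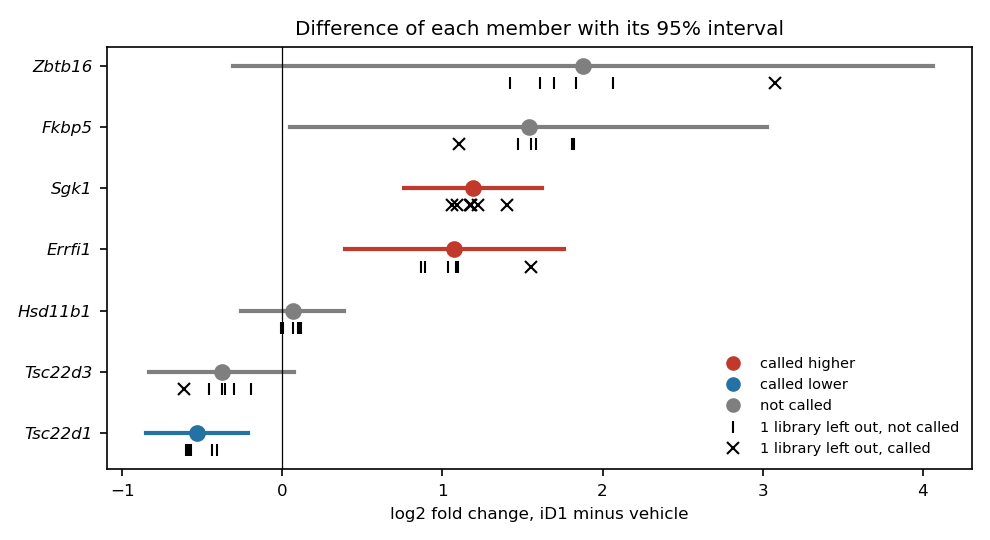
Log2 fold change of iD1 minus vehicle (horizontal axis) for each regulator, with the estimate from edgeR as a dot and its 95% interval as a line, and below it the estimates with 1 library left out (cross: called, tick: not called). Sgk1 has a cross in all 6 such fits, while Fkbp5, Zbtb16, Errfi1 and Tsc22d3 have 1 each and Tsc22d1 and Hsd11b1 have none.

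Positions are from GENCODE M21 on GRCm38, which lists each of the 7 as protein-coding; which build the counts were made on is unknown here. Other annotated genes lie within the spans of Fkbp5, Errfi1 and Hsd11b1 but share 0 exon bases with them.

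Per kilobase of the longest annotated transcript, Hsd11b1 and Errfi1 were the most abundant of the set in vehicle livers, at 238 ± 19.6 and 229 ± 112 CPM per kb. Tsc22d3 followed at 40.9 ± 4.47, Fkbp5 at 20.9 ± 12.9, Tsc22d1 at 7.54 ± 1.08, Sgk1 at 4.28 ± 0.141 and Zbtb16 at 2.21 ± 2.24 CPM per kb (SD, n = 3). Of the neighbours in that order, Hsd11b1 and Errfi1, Fkbp5 and Tsc22d1, and Sgk1 and Zbtb16 overlapped in mean ± SD. In iD1 livers the order was Errfi1 at 482 ± 21.6, Hsd11b1 at 249 ± 22.2, Fkbp5 at 60.8 ± 4.35, Tsc22d3 at 31.4 ± 9.13, Sgk1 at 9.77 ± 2.63, Zbtb16 at 8.13 ± 2.18 and Tsc22d1 at 5.21 ± 0.615 CPM per kb. Of the neighbours in that order, only Sgk1 and Zbtb16 overlapped in mean ± SD. Fkbp5 thus stood below Tsc22d3 in vehicle and above it with iD1. Several of these genes have transcripts of very different length, so the per-kilobase scale is approximate.

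Of 10 tested genes of the receptor and its chaperone machinery, 6 fell with iD1, beside 8.3% of all tested genes called lower, and iD1 values lay wholly below vehicle in 8, beside 18.7% of all tested genes; the median log2 fold change of the 10 was -0.53. Nr3c1, the glucocorticoid receptor itself, had 64.0, 82.3 and 72.8 CPM in vehicle replicate 1, vehicle replicate 2 and the unnumbered vehicle replicate, and 56.1, 45.4 and 52.1 CPM in iD1 replicates 1, 2 and 3. Its log2 fold change was -0.51 (SE 0.13) with an adjusted p of 0.0286 in edgeR's test. That call held without vehicle replicate 1 or iD1 replicate 1 and was lost without any of the others, at adjusted p-values from 0.0830 (iD1 replicate 3) to 0.0975 (vehicle replicate 2). Nr3c2, the mineralocorticoid receptor, which binds the same hormone, was scarce and fell from 8.01 ± 2.43 to 3.75 ± 0.538 CPM. Fkbp4, whose product FKBP52 competes with FKBP51 for the receptor complex and favours its movement to the nucleus, had 179, 175 and 187 CPM in vehicle and 86.5, 89.4 and 76.4 CPM in iD1 libraries. The 2 competing cochaperones thus had values on opposite sides of vehicle, with Fkbp4 called (-1.10, SE 0.12) and Fkbp5 not. The heat shock chaperone Hsp90aa1 dropped by 1.21 in log2. The cochaperone Stip1, which hands clients to HSP90, dropped by 1.11. The sixth, Hsp90ab1, named outside the rule for named genes, fell by 0.54. The count lower fell to 4 when any 1 library was left out other than vehicle replicate 1 (5) or iD1 replicate 1 (6), and was 8 with library size only.

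Of 5 tested genes of corticosteroid metabolism and transport, 1 rose and 1 fell, beside 8.42% and 8.3% of all tested genes, and the median log2 fold change was -0.45; 1 was called without vehicle replicate 2, without the unnumbered one or without iD1 replicate 2. H6pd, which supplies the NADPH that lets the Hsd11b1 product make active hormone, rose in every iD1 library, from 179.8, 209 and 199 CPM in vehicle to 388, 376 and 338 CPM, with a log2 difference of 0.91 (SE 0.13; edgeR adjusted p = 0.00259). Akr1c14, which reduces steroids at the third carbon, went from 431 ± 36.3 to 272 ± 73.2 CPM, a call that held only without iD1 replicate 3 among the 6 fits with 1 library left out. Its adjusted p-values in the other 5 ran from 0.0717 to 0.123. Hsd11b2, which inactivates the hormone in kidney, was not tested, with 1 count in all in each group. The enzyme gene H6pd and its partner Hsd11b1, described above, differed in their calls; the difference between them was not tested.

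**Figure D3:**
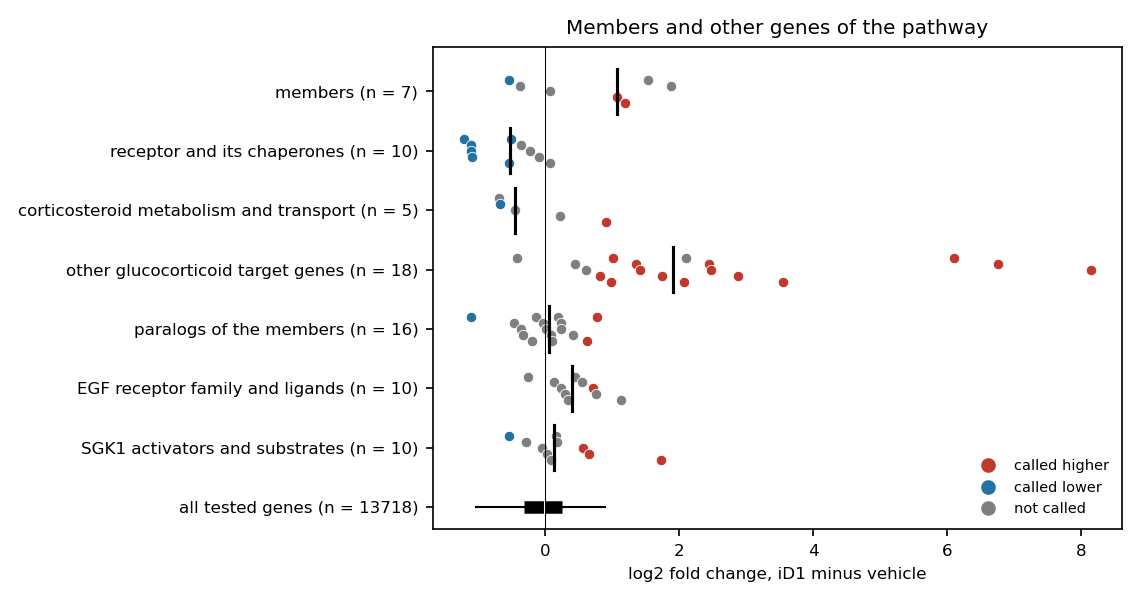
Log2 fold change of iD1 minus vehicle for each tested gene of the 7 regulators and of 6 other lists (1 point per gene, coloured by its call, with a black line at the list's median), and for all tested genes a bar from the 25th to the 75th percentile with a line from the 5th to the 95th. The receptor and chaperone points lie mostly to the left of 0 and those of the other glucocorticoid targets mostly to the right, while the 7 regulators lie on both sides.

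Of 18 other genes known as glucocorticoid targets in liver, 14 rose, beside 8.42% of all tested genes called higher. The iD1 values lay wholly above vehicle in 17 of the 18, beside 18.5% of all tested genes, and the median log2 fold change was 1.91. The list was put together with earlier results of these livers known, and several of its genes also answer to fasting, cyclic AMP or inflammation. Its smallest p-values belonged to Angptl4, an inhibitor of lipoprotein lipase (2.47, SE 0.21), Pck1, a control enzyme of glucose synthesis (2.08, SE 0.23), the hormone-induced repressor Klf9 (1.41, SE 0.16) and the transcription factor Cebpb. Cebpb had 57.3, 94.3 and 61.0 CPM in vehicle replicate 1, vehicle replicate 2 and the unnumbered vehicle replicate, and 226, 269 and 214 CPM in iD1 replicates 1, 2 and 3, with a log2 difference of 1.74 (SE 0.20; edgeR adjusted p = 0.000977). The 4 not called were the clock gene Per1 (0.61, SE 0.25), the lipid phosphatase Lpin1 (2.11, SE 0.67), glutamine synthetase Glul (0.45, SE 0.14) and the repressor Bcl6 (-0.43, SE 0.79), and Bcl6 was the gene whose groups overlapped. Tat and Tdo2, which break down tyrosine and tryptophan and are classical hormone targets in liver, rose from 2038 ± 590 to 5217 ± 1086 CPM and from 1502 ± 364 to 2976 ± 675 CPM; they are named outside the rule for named genes.

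Vehicle replicate 1 was the lowest of the 3 vehicle libraries in 16 of these 18 genes, whereas it was lowest in 34.9% of all tested genes. It was also the lowest in 5 of the 7 regulators. The 2 exceptions among the regulators were Tsc22d1 and Sgk1, which were highest there. Igfbp1 and Bcl6 were the exceptions among the 18. This count was made after the values were seen, and genes that vary together are not independent. For Fkbp5 that library held 23.4 CPM against 108 and 110.4 in the others.

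**Figure D4:**
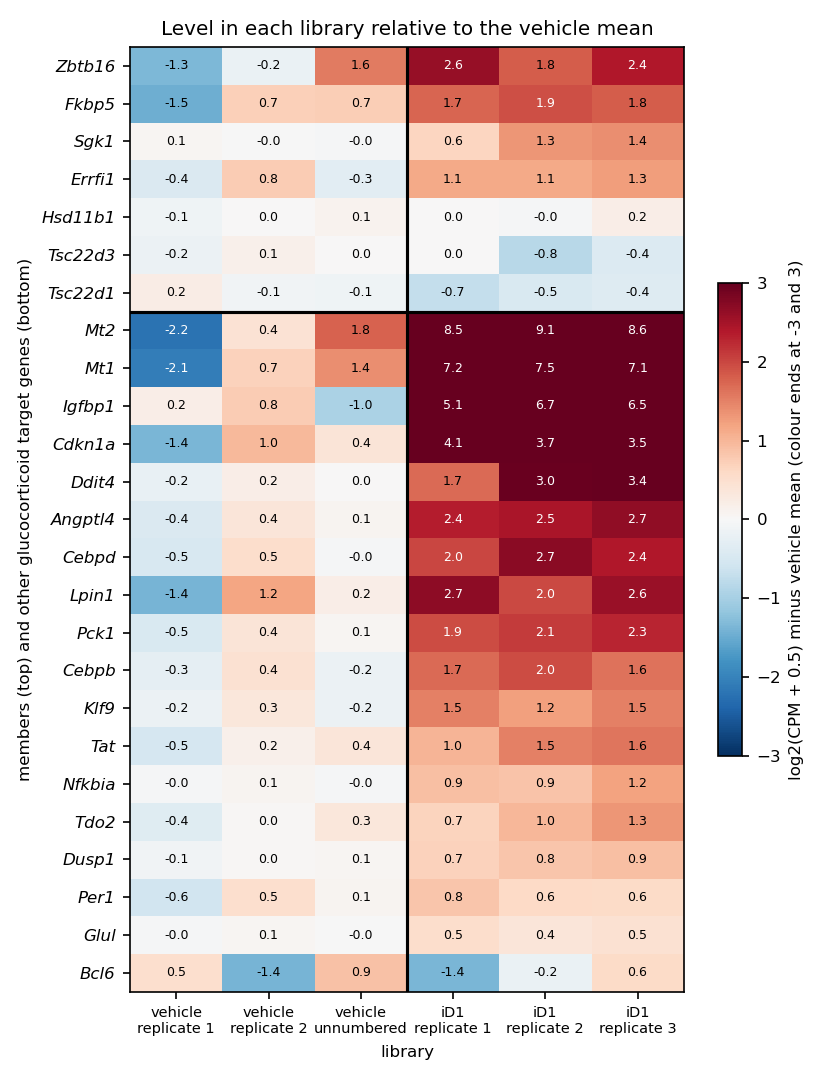
Log2(CPM + 0.5) minus the mean of the vehicle libraries (colour and printed number) for the 7 regulators above the line and 18 other glucocorticoid targets below it, in each library. The column of vehicle replicate 1 is blue for most genes, including Fkbp5 and Zbtb16, and the iD1 columns are red for most targets but not for Tsc22d3 or Tsc22d1, while Hsd11b1 is near white throughout.

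The EGF receptor, which the Errfi1 product blocks, and its relatives showed 1 call among 10 tested genes, beside 16.7% of all tested genes called. Erbb3, the kinase-poor partner receptor, rose from 66.9, 69.5 and 55.2 CPM in vehicle replicate 1, vehicle replicate 2 and the unnumbered vehicle replicate to 95.6, 103 and 116 CPM in iD1 replicates 1, 2 and 3, with a log2 difference of 0.72 (SE 0.13; edgeR adjusted p = 0.00723). Egfr itself, named outside the rule, had 424, 202 and 289.6 CPM in vehicle and 558, 568 and 418 CPM in iD1 libraries, which overlapped, with a log2 difference of 0.75 (SE 0.26; edgeR adjusted p = 0.0811). The median log2 fold change of the list was 0.39. The ligand genes Areg and Ereg were too low to be tested. In the list, 2 genes were called without vehicle replicate 1 or without iD1 replicate 2.

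Among 10 genes that activate SGK1 or are its substrates, 3 rose and 1 fell, beside 8.42% of all tested genes called higher and 8.3% called lower, with a median log2 fold change of 0.13. Ndrg1 encodes a substrate of the kinase. Its RNA had 3.56, 4.10 and 2.85 CPM in vehicle and 7.98, 13.3 and 13.7 CPM in iD1 replicates 1, 2 and 3. The activity of the kinase was not measured. As for Sgk1, iD1 replicate 1 was the iD1 library nearest to vehicle. The log2 fold change of Ndrg1 was 1.73 (SE 0.23) with an adjusted p of 0.00182 in edgeR's test, and it was called in all 16 alternatives. Nedd4l, a ubiquitin ligase that SGK1 phosphorylates, and Rictor, a subunit of the mTORC2 complex that activates SGK1, rose by 0.65 (SE 0.17) and 0.56 (SE 0.15) on the log2 scale, and Mlst8, another subunit, fell by 0.54 (SE 0.16). Without 1 library these 3 calls were mostly lost: Nedd4l held without vehicle replicate 2 or iD1 replicate 3, Rictor and Mlst8 held without iD1 replicate 2, and the highest adjusted p was 0.154. With library size only, Nedd4l (0.117) and Rictor (0.204) were not called. Rictor was not called with upper-quartile factors (0.0524), nor Mlst8 with DESeq2 (0.0538) or with no filter on low counts (0.0562). The list's count of calls was 1 without vehicle replicate 1, the unnumbered vehicle replicate or iD1 replicate 1, and 2 without vehicle replicate 2, without iD1 replicate 3 or with library size only.

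Among 11130 named genes with a mean of at least 1 CPM, the likeness to each regulator was measured as the root mean square difference of log2(CPM + 0.5), centred on the vehicle mean, over the 6 libraries. Nearest to Fkbp5 were Il6ra, the interleukin 6 receptor, at 0.17, St3gal5 at 0.32 and Eif4ebp3 at 0.37. Nearest to Sgk1 were the stress pseudokinase Trib3 at 0.08, Reps1 at 0.10 and Zfp612 at 0.11. Errfi1 was nearest to the kinase Sik3 at 0.19, the fasting transcription factor Foxo1 at 0.19 and Rasgef1b at 0.21. Zbtb16 had no close match, with Chd9 at 0.62, Plin4 at 0.71 and Cep85 at 0.71. For Tsc22d3, Slc25a36 and Slc39a2 were among the nearest, at 0.06 each. Tsc22d1 was nearest to Tle6, Fer and Mfsd12 at 0.07 each, and Hsd11b1 to Card10 at 0.03, N4bp1 and Rilpl1 at 0.04 each. Genes with small differences find near matches more easily, so these distances compare only within a regulator.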

How the data were processed

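Liver mRNA was sequenced from stranded libraries, per the labels' protocols. The unscaled values the authors deposited are estimated counts for each gene, in 1 table. The aligner, quantifier and build are unknown here. Between 22.5% and 27.7% of a library's values were not whole, and values were rounded. Symbols were found for 34652 of 34866 identifiers, and 93.6% matched GENCODE M21 with version.

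Columns were assigned by name. No pair of libraries of a group agreed within sampling noise. Genes were kept by edgeR's filterByExpr (minimum count 10, minimum total 15), libraries were scaled by TMM, and groups were compared with edgeR 4.0.16's robust quasi-likelihood F test in R 4.3.3 (two-sided), Benjamini-Hochberg adjusted over all tested genes with a threshold of 0.05. The SE is the log2 fold change divided by the square root of F. With 3 libraries against 3, an exact permutation test cannot go under 0.1. The test was checked on simulated counts drawn from its own fitted variation, so the check does not cover other forms of library-to-library spread.

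The regulators and lists were chosen with earlier results of these data known. The text names all 7 regulators, Nr3c1, the 4 called genes of smallest p in each list, and the 3 genes most like each regulator, of which 1 is not reported here; a few others are marked. The alternatives comprised DESeq2 1.42.0, limma-voom 3.58.1, other scaling and filters, non-robust shrinkage, a threshold of 0.01, a replicate block and leaving out each library.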

Additional observations from a re-analysis of the deposited data

How the results depend on the processing

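Across the 16 alternatives Sgk1 was called in all 16, Tsc22d1 in 8, Errfi1 in 6, Fkbp5 and Zbtb16 in 2 each, Tsc22d3 in 1 and Hsd11b1 in none (lowest adjusted p 0.526); Hsd11b1 alone changed sign, to -0.0086 with upper-quartile factors, -0.13 with library size only and, among fits without 1 library, from -0.0076 (without iD1 replicate 3) to 0.12 (without the unnumbered vehicle replicate). At a threshold of 0.01 the calls were 1 regulator, 825 of all genes, 3 of the receptor list, 1 of corticosteroid metabolism, 9 of the other targets and 1 of the SGK1 list. Limma-voom called 5 regulators, DESeq2 2 EGF receptor family genes, and library size only 2 SGK1 list genes. Leaving out each library in turn gave 1 to 2 regulators, 1212 to 2574 of all genes, 4 to 6 of the receptor list, 1 to 2 of corticosteroid metabolism, 10 to 13 of the other targets, 2 to 3 paralogs, 1 to 2 of the EGF receptor family and 1 to 3 of the SGK1 list. A stricter threshold can only lower a count, and the cause of the other moves was not tested.

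The labels give replicate numbers to both groups, and the columns share 2 of them. Same-numbered libraries had deviations from their group means correlated at 0.17 (number 1) and -0.13 (number 2). Pairs without a shared number ran from -0.25 to 0.22. With 3 libraries per group, these values cannot decide whether same-numbered libraries were paired. The replicate block on these 4 libraries called 1 regulator, Sgk1, 768 of all genes, 3 of the receptor list, 1 of the SGK1 list and 0 of the EGF receptor family by edgeR, where 2 had an unadjusted p under 0.05 and DESeq2 without the block called 2. The lowest count of a regulator in any library was 85, for Zbtb16 in vehicle replicate 1.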

Other observations

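Of 16 tested paralogs of the regulators, 2 rose and 1 fell, beside 16.7% of all tested genes called. Their median log2 fold change was 0.05. The iD1 values lay wholly above vehicle in 2 and wholly below in 3, beside 18.5% and 18.7% of all tested genes. Both paralogs that were called higher belong to the TSC22 family, in which Tsc22d1 fell. Tsc22d2 had 13.3, 16.0 and 17.0 CPM in vehicle replicate 1, vehicle replicate 2 and the unnumbered vehicle replicate, and 26.2, 28.3 and 25.1 CPM in iD1 replicates 1, 2 and 3, with a log2 difference of 0.78 (SE 0.13; edgeR adjusted p = 0.00407), and it was called in all 16 alternatives. Tsc22d4 rose by 0.63 (SE 0.17) on the log2 scale from a low level of 5.05 ± 0.24 CPM in vehicle, and was called without 1 library only when iD1 replicate 2 was left out; upper-quartile factors (adjusted p = 0.0592) and library size only (0.185) also ended the call. Sgk2 and Sgk3, the other kinases of the SGK family, had log2 fold changes of -0.47 (SE 0.16) and -0.03 (SE 0.15). Neither was called, while Sgk1 rose. All iD1 values of Sgk2 lay below all its vehicle values (adjusted p = 0.0794 in edgeR's test), and the groups of Sgk3 overlapped. Among the FKBP immunophilins tested beside Fkbp5, Fkbp4 was the 1 called. The others had log2 fold changes from -0.36 (Fkbp14, SE 0.17) to 0.42 (Fkbp10, SE 0.40). Of these others, Fkbp3 (-0.34, SE 0.14) had iD1 values wholly below vehicle.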
